A study of Mus musculus with 19 samples.

Results

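The neurotrophins are secreted growth factors of neurons, and 7 genes of this system were followed here: the ligands Bdnf and Ntf3, the Trk receptors Ntrk2 and Ntrk3, the p75 receptor Ngfr, and the sorting receptors Sort1 and Sorcs1. They were taken by gene symbol, each had 1 row in the RNA table and 1 in the ribosome profiling table, and they are 7 of the 20436 genes in each table. All 7 passed the filter on low counts in both assays. Another 51 genes of the pathway were listed for comparison.

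The libraries came from hippocampal slices of wild-type male mice aged 28 to 42 days (P28-42). Slices received either the group I mGluR agonist DHPG at 100 µM or the vehicle ACSF (basal) for 5 min, and slices of both groups were then put in cycloheximide at 100 µg/ml, which holds ribosomes on their mRNAs. RNA-seq had 4 basal and 5 DHPG libraries, and ribosome profiling, which counts ribosome-protected fragments (RPFs), had 5 and 5. Each library pooled the slices of 6 mice, whole slices with all their cell types entered the lysate, and the DHPG RNA library of replicate 5 had no basal partner. Fewer cells of a type and less RNA per cell cannot be told apart in such samples.

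Total counts were 4870813 to 7793244 in the RNA libraries and 5692064 to 22092434 in the RPF libraries. Levels are given as CPM, counts scaled to the library's effective size, and intervals on counts cover counting error only. Markers of hippocampal cells were present, with summed RNA levels in basal slices of 378 to 632 CPM for 4 CA1 genes, 152 to 220.4 CPM for 4 CA3 genes and 261 to 317 CPM for 4 dentate granule cell genes. Of 3 cholinergic markers, Chat and Slc18a3 averaged under 1 CPM in both assays, and of 3 choroid plexus markers Ttr and Folr1 did. Both replicate 4 RPF libraries had the lowest summed level of 5 oligodendrocyte genes in their group, 3314 CPM against 6027 to 7269 in the other basal libraries and 3825 against 5482 to 8452 in the other DHPG libraries. The summed RPF level of 4 thalamus markers was 104 to 127 CPM in basal and 109 to 167 CPM in DHPG libraries, and 4 of 4 rose after DHPG at an adjusted p under 0.05 in edgeR.

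Neurotrophins are made as precursors that are cut to the mature ligand by furin and related proteases. Mature BDNF acts through TrkB, the product of Ntrk2, and mature NT-3 acts mainly through TrkC, the product of Ntrk3, and both receptors are tyrosine kinases that signal through Ras and ERK, PI3 kinase and phospholipase C gamma. The uncut precursors bind the p75 receptor together with sortilin, the product of Sort1, and sortilin and its relatives also steer BDNF and Trk receptors through the cell. In the hippocampus BDNF is known from synaptic plasticity, and p75 is best known from the cholinergic neurons of the basal forebrain.

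Both Trk genes also make truncated receptors that lack the kinase domain and end in a different coding sequence. The last 27 coding bases with the stop codon in capitals are shown for 1 full-length and 1 truncated form of each, because the tables add both forms into 1 row and no value below separates them.
Ntrk2-201: tctcccgtctacctggatatcctaggcTAG
Ntrk3-201: accccgatctacctggacattcttggcTAG
Ntrk2-202: ttgtttcataagatcccactggatgggTAG
Ntrk3-202: tatttcagcaaaggacgtcatggctttTAA
All 4 were read from mm10 with GENCODE M21. The full-length forms, Ntrk2-201 (821 codons, plus strand, chr13:59128324-59128353) and Ntrk3-201 (825 codons, minus strand, chr7:78192559-78192588), shared 20 of these 27 bases. The truncated forms, Ntrk2-202 (476 codons, chr13:58932031-58932060) and Ntrk3-202 (612 codons, chr7:78302629-78302658), shared 8 of 27 with each other, and 6 and 4 of 27 with the full-length form of their own gene. The Ntrk2 gene spans chr13:58806569-59133970 and Ntrk3 spans chr7:78175959-78738012, with 7 and 4 annotated coding transcripts. The length of a receptor transcript therefore depends on the form, from 8744 nt for Ntrk2-201 to 6846 nt for Ntrk2-202 and from 19703 nt for Ntrk3-201 to 3977 nt for Ntrk3-202.

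Bdnf (chr2:109674700-109727007, plus strand) has several promoters, each joined to the same coding exon. RefSeq (GRCm38.p6) gave 7 Bdnf windows of 300 bases, from 250 before to 50 after a start site, and windows for 5 of the 7 genes, with none for Ntrk3 and Sort1. The half-site of the cAMP response element, TGACG or its reverse complement CGTCA, is shown because CREB acting on it is a textbook route from neuronal activity to Bdnf transcription. It occurred in 1 of the 7 Bdnf windows, 35 bases before the start site at chr2:109692389-109692417, with the half-site in capitals.
Bdnf: tatgacagctcaCGTCAaggcagcgtgga
No window of Ntf3, Ntrk2, Ngfr or Sorcs1 held the half-site, which 20.8% of all 32851 windows held, and the full palindrome TGACGTCA was in no window of the 5 genes and in 1.79% of all windows. A match describes the letters of the window and not a bound site.

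Levels were first compared between genes per kb of sequence, as CPM divided by the annotated transcript length for RNA and by the coding length less 30 nt at each end for RPFs. In RPFs of basal slices Ntrk2 was at 293 ± 25.97 CPM per kb (SD, n = 5) and Sort1 at 275 ± 23.0, and their ranges overlapped (267 to 322 and 243 to 294). Bdnf followed at 95.7 ± 6.06 and Ntrk3 at 77.4 ± 5.97 CPM per kb, with ranges that did not overlap (88.5 to 103 and 70.7 to 83.8). Ntf3 was at 16.7 ± 2.06, Sorcs1 at 7.27 ± 1.17 and Ngfr at 1.44 ± 0.29 CPM per kb, each apart from its neighbours in all 5 libraries. Ntrk2 and Sort1 were thus at the 94.8th and 94.5th percentile of the 12723 genes with RPF levels per kb, Bdnf at the 85.0th, and Ngfr at the 8.01st. The order of the RPF levels per kb was the same with the median instead of the longest coding length, although Ntrk2 then came to 500 CPM per kb.

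In RNA of basal slices Sort1 was at 104 ± 11.0 CPM per kb (SD, n = 4) and Ntrk2 at 78.3 ± 6.99, and Ntrk3 followed at 15.1 ± 1.87 with the longest annotated transcript. Bdnf at 6.02 ± 1.89 and Ntf3 at 4.85 ± 1.07 CPM per kb overlapped (4.35 to 7.66 and 3.81 to 6.14), and so did Ntf3 and Sorcs1, which was at 3.62 ± 0.50. Ngfr was last at 0.53 ± 0.20 CPM per kb, the 2.16th percentile of 12457 genes. The length used decided the top of this order. With the median annotated length, RNA of Ntrk2 was first at 224 ± 20.04 CPM per kb and Ntrk3 came to 88.4 ± 10.9, with a range of 74.7 to 99.7 that overlapped that of Sort1 (89.9 to 113).

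**Figure D1:**
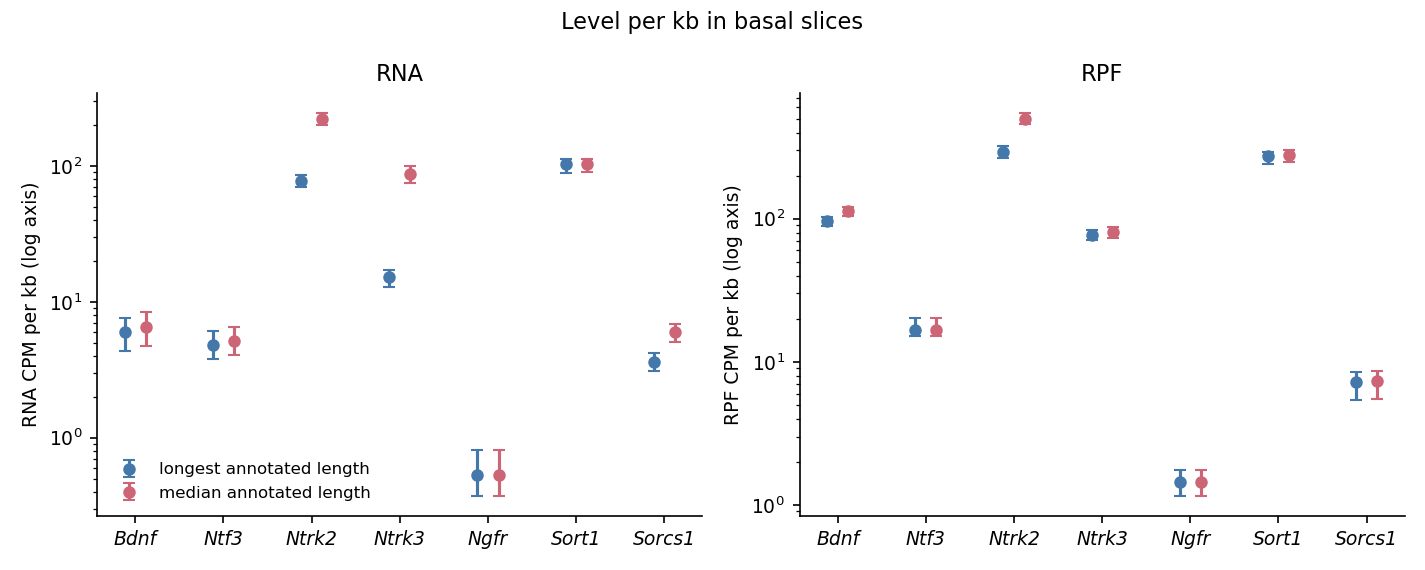
RNA (left, 4 basal libraries) and RPF level (right, 5 basal libraries) of each gene in CPM per kb on a log axis, with points for the mean and bars for the lowest and highest library, for the longest and the median annotated length. Ntrk2 and Ntrk3 differ most between the lengths in RNA, where Ntrk3 is at 15.1 with the longest and 88.4 CPM per kb with the median transcript, and Ngfr is lowest in both assays.

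Ratios were also taken between genes within a library. The RPF level of Ntrk2 per kb was 3.78 ± 0.063 times that of Ntrk3 in the 5 basal libraries (3.68 to 3.84) and 3.78 ± 0.14 times in the 5 DHPG libraries, and with median lengths it was 6.22 times in basal slices. In RNA the same ratio was 5.20 ± 0.56 (n = 4) with the longest and 2.56 with median lengths, so the length decided whether it was higher in RNA or in RPFs. Bdnf was at 5.78 ± 0.67 times the level of Ntf3 per kb in basal RPFs and at 1.30 ± 0.56 times in basal RNA, where it ranged from 0.72 to 2.01 among 4 libraries. Sort1 was at 38.3 ± 3.96 times the level of Sorcs1 per kb in basal RPFs. The level of Sort1 per kb was 0.94 ± 0.046 times that of Ntrk2 in basal RPFs and 1.33 ± 0.055 times in basal RNA, and with median lengths 0.56 and 0.47 times.

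Bdnf encodes brain-derived neurotrophic factor. Its RNA was at 32.7, 18.5, 18.8 and 32.6 CPM in basal replicates 1 to 4, from 90 to 231 counts. Replicates 1 and 4 were high and replicates 2 and 3 low, and the exact 95% Poisson intervals of the high libraries (28.3 to 37.5 and 28.5 to 37.1 CPM) did not overlap those of the low ones (14.9 to 22.8 and 15.6 to 22.5). DHPG replicates 1 to 5 had 30.7, 23.7, 18.4, 34.8 and 27.2 CPM of Bdnf RNA, so the same replicate numbers were high and the groups overlapped. The highest basal RNA level was 1.76 times the lowest, with a coefficient of variation of 31.4% where counting alone gives 8.31%. In RPFs the spread was much smaller. Basal replicates 1 to 5 had 71.4, 80.0, 78.7, 83.1 and 73.0 CPM of Bdnf RPFs, and DHPG replicates had 79.6, 87.7, 82.8, 87.2 and 72.5 CPM. The highest basal RPF level was 1.16 times the lowest, and the groups overlapped.

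The split of the Bdnf RNA libraries went with other genes of the same libraries. The summed RNA level of 4 CA1 markers was 441, 632, 631 and 378 CPM in basal replicates 1 to 4, low where Bdnf was high. In RPFs of the 5 basal libraries it was 425 to 447 CPM. The low pair was not particular to CA1. Oligodendrocyte markers were at 3470, 4435, 4424 and 2041 CPM in basal RNA replicates 1 to 4. CA3, excitatory neuron, astrocyte, microglia, oligodendrocyte precursor, endothelial and cholinergic markers had the same low pair. Dentate granule cell markers went the other way, at 307, 261, 301 and 317 CPM, as did thalamus markers. Interneuron and choroid plexus markers followed neither pattern. The summed RNA level of 5 markers of excitatory neurons was 3277 to 5559 CPM in basal slices and the summed RPF level was 4945 to 5989 CPM. Across the 9 RNA libraries, which share 4 replicate numbers between the groups, log2 levels of Bdnf and Ntrk2 had a Pearson correlation of -0.91, against 0.41 across the 10 RPF libraries. The part of these differences between libraries in the Bdnf RNA levels was not tested.

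Ntf3 (chr6:126101412-126166910, minus strand) encodes neurotrophin 3 and was measured from few reads. Its RNA was at 7.84, 6.18, 9.11 and 5.65 CPM in basal replicates 1 to 4 and at 8.00, 7.01, 7.85, 6.04 and 8.58 CPM in DHPG replicates 1 to 5, from 30 to 62 counts. Its RPFs were at 11.5, 12.4, 15.3, 11.7 and 12.2 CPM in basal replicates and at 13.5, 11.3, 15.0, 13.5 and 14.5 CPM in DHPG replicates. Replicate 3 had the highest Ntf3 RPF level in both groups, and the groups overlapped in both assays.

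**Figure D2:**
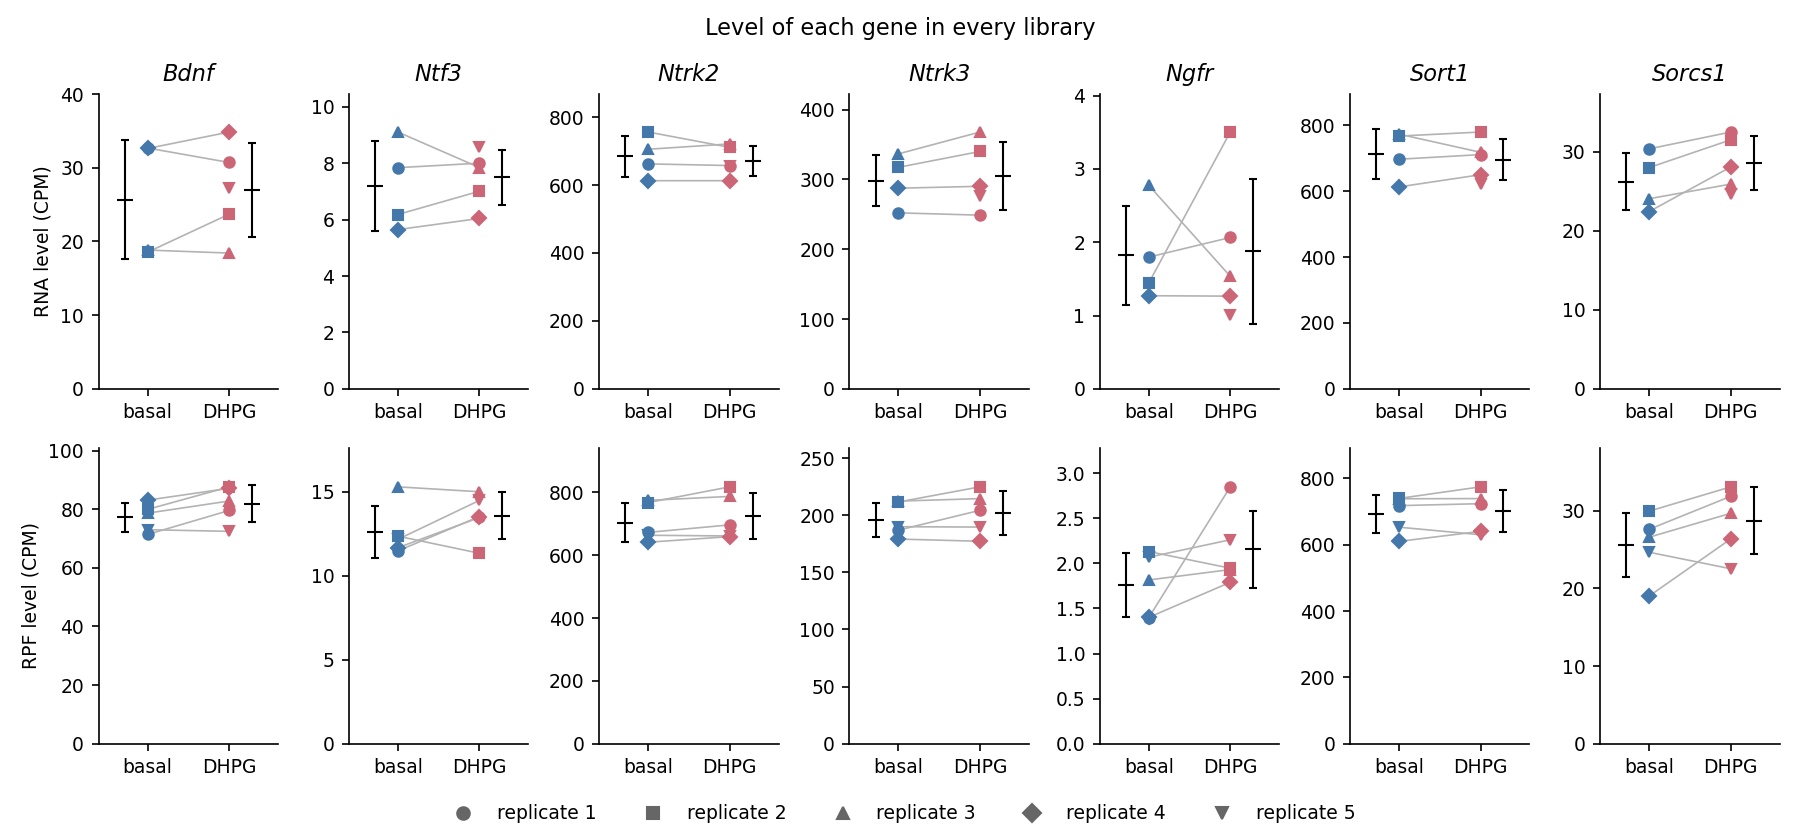
Level of each gene in CPM in every library, RNA above and RPF below, on linear axes from 0, with grey lines joining basal and DHPG libraries of the same replicate number and black bars for the mean and SD of each group (4 basal and 5 DHPG RNA libraries, 5 and 5 RPF libraries). Basal and DHPG libraries overlap for all 7 genes in both assays, and Bdnf RNA falls into 2 high and 2 low basal libraries where Bdnf RPFs do not.

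Ntrk2, which encodes TrkB, had RNA levels of 662, 756, 706 and 613 CPM in basal replicates 1 to 4 and of 657, 711, 721, 613 and 657 CPM in DHPG replicates 1 to 5. Its RPFs were at 673, 768, 774, 641 and 663 CPM in basal and at 696, 817, 787, 659 and 661 CPM in DHPG replicates 1 to 5. The groups overlapped, and in RPFs of both groups replicates 2 and 3 were high and replicates 4 and 5 low. Ntrk3, which encodes TrkC, was also highest in replicates 2 and 3 and lowest in replicate 4 in RPFs of both groups, which overlapped. Its RNA was at 252, 317, 337 and 287 CPM in basal and at 249, 340.1, 368, 290.2 and 277 CPM in DHPG slices. Its RPFs were at 187, 212, 212, 179 and 189.9 CPM in basal and at 204, 225, 214, 177 and 189.6 CPM in DHPG replicates 1 to 5. Log2 RPF levels of the 2 receptors had a Pearson correlation of 0.95 across the 10 libraries, which share replicate numbers, and 0.62 across the 9 RNA libraries. Summed RPF levels of 6 astrocyte markers were 4882 to 5892 CPM in basal libraries, highest in replicate 3, and their part in the receptor levels, like that of the oligodendrocyte markers, was not tested.

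Ngfr (chr11:95568818-95587735, minus strand), the gene of the p75 receptor, was close to the limit of detection. Its RNA was at 1.80, 1.44, 2.78 and 1.27 CPM in basal and at 2.06, 3.50, 1.54, 1.26 and 1.01 CPM in DHPG replicates, from 6 to 18 counts a library. Its RPFs, from 9 to 40 counts, were at 1.40, 2.13, 1.82, 1.40 and 2.07 CPM in basal and at 2.85, 1.95, 1.93, 1.79 and 2.26 CPM in DHPG replicates. The groups overlapped in both assays, and the basal RPF spread was no larger than the coefficient of variation of 22.9% that counting alone gives. Of 3 markers of cholinergic neurons, a cell type known for p75, Chat and Slc18a3 averaged under 1 CPM in both assays and Slc5a7 did not. The 3 summed to 0.99 to 2.27 CPM in basal RNA and to 1.09 to 2.13 CPM in basal RPFs. Their part in the Ngfr level was not tested.

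Sort1 (chr3:108284082-108361511, plus strand) encodes sortilin, which sorts proneurotrophins and is also their co-receptor with p75. Its RNA was at 697, 767, 773 and 613 CPM in basal and at 711, 779, 718, 649.9 and 621 CPM in DHPG replicates. Its RPFs were at 718, 739.8, 739, 610.2 and 653 CPM in basal and at 724, 775, 739, 640.5 and 630.2 CPM in DHPG replicates. The RPF levels of replicates 4 and 5 were the lowest in both groups, as for Ntrk2, and the groups overlapped.

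Sorcs1 (chr19:50143299-50678646, minus strand) encodes a sortilin relative that sorts membrane proteins of neurons. RNA of Sorcs1 was at 30.4, 28.02, 24.1 and 22.4 CPM in basal replicates 1 to 4 and at 32.5, 31.5, 25.9, 28.1 and 24.7 CPM in DHPG replicates 1 to 5, so it was higher after DHPG in 4 of 4 pairs although the groups overlapped. RPFs of Sorcs1 were at 27.6, 29.96, 26.6, 19.03 and 24.7 CPM in basal and at 31.9, 33.1, 29.7, 26.4 and 22.5 CPM in DHPG replicates. The RPF level was higher in 4 of 5 pairs, with the largest step in replicate 4, where the basal library was the lowest of all 10.

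The resting ratio of RPFs to RNA, the translation efficiency (TE) of unstimulated slices, was taken as log2 RPF CPM less log2 RNA CPM in basal replicates 1 to 4. Of the 7 genes Bdnf had the most RPFs per RNA. TE of Bdnf was 1.12, 2.09, 2.04 and 1.34 in replicates 1 to 4, with a mean of 1.65 ± 0.49 (SD, n = 4) on the log2 scale, the 95.7th percentile of 12691 genes whose median was -0.18. It was high in the replicates with little Bdnf RNA, and all 4 values were above those of the other 6 genes. TE of Ntf3 was 0.79 ± 0.22, the 82.9th percentile.

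The receptors were nearer the median of all genes. On the log2 scale TE was 0.060 ± 0.053 for Ntrk2 (59.4th percentile), -0.59 ± 0.11 for Ntrk3 (34.7th), -0.021 ± 0.049 for Sort1 (56.4th) and -0.043 ± 0.18 for Sorcs1 (55.5th). All 4 Ntrk3 values, from -0.68 to -0.43, were below all 4 Ntrk2 values, from 0.021 to 0.13. TE of Ngfr was -0.19 ± 0.46 and ranged from -0.65 to 0.38, more than any neighbour in rank.

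RNA reads were counted over the whole transcript and RPFs over the coding part, so the TE of a gene also holds the share of its RNA that is coding. Divided by the 2 lengths of the longest forms, TE of Bdnf was 4.05 (96.3rd percentile of 12229 genes, median 0.93), TE of Ntrk2 1.92 (74.3rd) and TE of Ntrk3 2.37 (81.9th). With median lengths Bdnf was at 4.15 (97.4th), Ntrk2 at 1.18 (59.7th) and Ntrk3 at -0.12 (24.1st). Bdnf was thus in the top 5% of genes on all 3 scales, and the order of the 2 Trk receptors turned with the transcript length chosen. Sort1 was at the 62.7th and 66.7th, and Ntf3 at the 70.8th and 71.9th percentile on the 2 length scales.

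**Figure D3:**
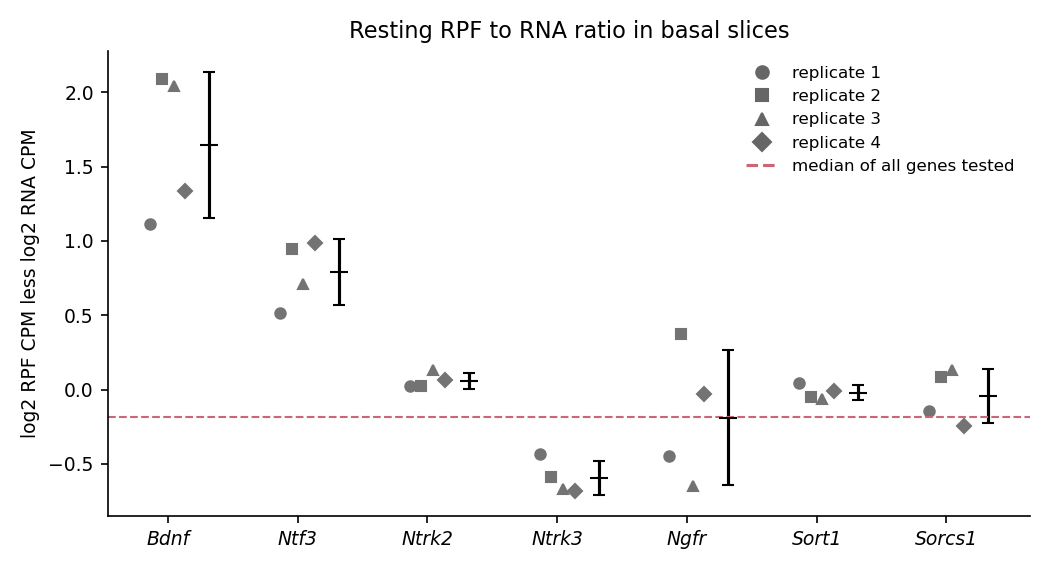
Resting RPF to RNA ratio (log2 RPF CPM less log2 RNA CPM, not divided by length) of each gene in basal replicates 1 to 4, with the mean and SD in black and the median of 12691 genes as a dashed line. Bdnf lies at 1.12 to 2.09, above the 4 values of every other gene, and Ntrk3 lies at -0.68 to -0.43.

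The comparison of DHPG with basal slices asks whether 5 min of mGluR stimulation alters the RNA of these genes, the ribosomes on it, or the ratio of both. No gene of the 7 passed the test in RNA (adjusted p under 0.01), in RPFs (under 0.05) or in TE (under 0.05), each by the quasi-likelihood test of edgeR with a block for the replicate number. Among all genes, 0.00773% of 12935 passed in RNA, 0.22% of 13208 in RPFs and 0% of 12691 in TE, so 0 of 7 is a share near the background. At an unadjusted p under 0.05, 0 of 7 genes passed in RNA beside 8.02% of all genes, 2 of 7 in RPFs beside 10.8%, and 0 of 7 in TE beside 6.77%. For TE as a whole, edgeR had 859 genes at an unadjusted p under 0.05, and limma on the differences of log2 CPM gave 0 adjusted and 689 unadjusted calls.

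The 2 genes past the unadjusted threshold in RPFs were Sorcs1 and Bdnf. RPFs of Sorcs1 differed by a log2 fold change of 0.15 (SE 0.061, 95% interval 0.030 to 0.27, adjusted p = 0.347 in edgeR). RPFs of Bdnf were higher after DHPG in 4 of 5 pairs, by a log2 fold change of 0.081 (SE 0.039, 95% interval 0.0027 to 0.16, adjusted p = 0.447 in edgeR). RNA of Sorcs1 differed by 0.17 (SE 0.097, adjusted p = 0.662) and RNA of Bdnf by 0.064 (SE 0.10, adjusted p = 0.908) on the log2 scale. The change of TE was -0.020 (SE 0.11) for Sorcs1 and 0.022 (SE 0.098) for Bdnf, with adjusted p of 0.981 and 0.977 in edgeR. In the same libraries 4 of 4 thalamus markers rose in RPFs, and in RNA all 4 had a higher level after DHPG and 1 passed the test. In RPFs 1 of 5 oligodendrocyte and 1 of 6 interneuron markers also passed. The summed RPF level of the thalamus markers was lower after DHPG only in replicate 5 (123 and 109 CPM). Replicate 5 was also the only pair in which RPFs of Bdnf and Sorcs1 were lower. The part of these markers in the values of Sorcs1 and Bdnf was not tested.

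For the abundant receptors the intervals were narrow. The 95% interval of the RPF fold change was 0.988 to 1.07 for Ntrk2, 0.983 to 1.08 for Ntrk3 and 0.973 to 1.06 for Sort1, around log2 fold changes of 0.040, 0.040 and 0.020. In RNA their log2 fold changes were -0.017, 0.056 and 0.0073, with SE of 0.064, 0.066 and 0.064. The adjusted p of these 3 genes were 0.663, 0.705 and 0.860 in RPFs and 0.968, 0.864 and 0.989 in RNA.

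For the scarce genes they were wide. The RPF fold change of Ntf3 had a 95% interval of 0.941 to 1.17 and that of Ngfr 0.864 to 1.47, and in RNA the interval of Ngfr was 0.687 to 1.73. At 6 to 18 RNA counts a library, a change of Ngfr within this interval could not be told apart from none. The interval is not a limit of detection, since a call also needed an adjusted p under 0.01. All adjusted p of both genes were 0.801 or above, in RNA, RPFs and TE.

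By direction, the RPF fold change was above 0 for 7 of 7 genes, with a median log2 value of 0.070, beside a median of 0.0031 and 51.4% above 0 among all genes tested. In RNA 6 of 7 were above 0 (median 0.056, all genes 0.0068 and 52.1%), and in TE 5 of 7 (median 0.022, all genes -0.0014 and 49.5%). The members are not independent, since the RPF levels of Ntrk2, Ntrk3, Sort1 and Sorcs1 moved together across libraries with correlations of 0.72 to 0.95.

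**Figure D4:**
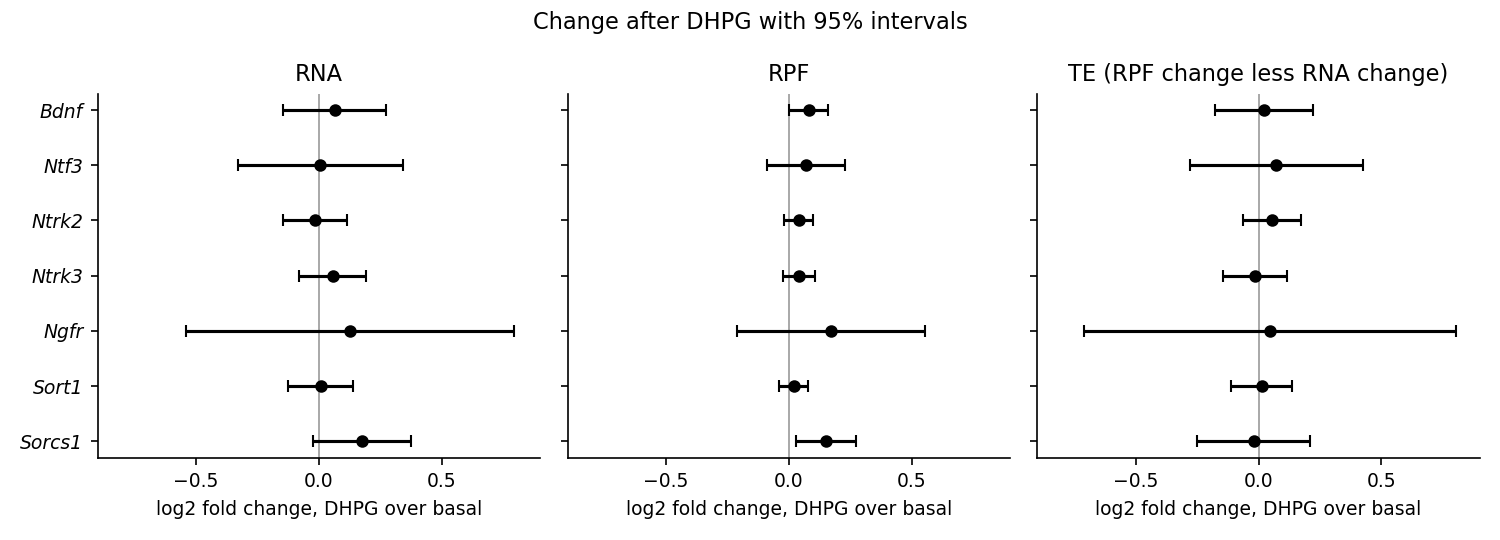
Log2 fold change after DHPG over basal of each gene in RNA, RPFs and TE (RPF change less RNA change), with 95% intervals from edgeR. Intervals include 0 except for Bdnf (0.0027 to 0.16) and Sorcs1 (0.030 to 0.27) in RPFs, whose adjusted p are 0.447 and 0.347, and they are widest for Ngfr.

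Other receptors and ligands of the system were described from the same fits. Ntf5, the gene of neurotrophin 4, had 0 to 6 counts in every library and was not tested. Sorl1, which encodes the sorting receptor SorLA, was at 850 ± 102 CPM in basal RPFs and had an RPF log2 fold change of 0.062 (SE 0.029, adjusted p = 0.440 in edgeR). Sorcs2 and Sorcs3, relatives of Sorcs1, had RPF log2 fold changes of 0.041 and 0.068, with adjusted p of 0.712 and 0.557.

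Of the 51 listed pathway genes, 48 were tested in RNA, 49 in RPFs and 48 in TE, and 0 passed in each by edgeR, with 5, 9 and 4 at an unadjusted p under 0.05, beside 8.02%, 10.8% and 6.77% of all genes tested. In RNA the first gene by unadjusted p was Furin, a protease that cuts proneurotrophins, with a log2 fold change of 0.28 (SE 0.086, adjusted p = 0.536 in edgeR). In RPFs it was Lingo1, a p75 co-receptor in neurons, at 0.097 (SE 0.032, adjusted p = 0.233 in edgeR). In TE it was Rapgef1, an exchange factor of the small GTPase Rap, at -0.23 (SE 0.079, adjusted p = 0.645 in edgeR).

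By list, 15 of 19 Trk adaptors and effectors had an RNA fold change above 0 and 4 of 19 an RPF fold change above 0, with median log2 values of 0.064 and -0.045. The TE of 14 of these 19 genes was lower after DHPG, with a median of -0.094. Among all 48 pathway genes tested TE was lower for 30 (median -0.021). It was lower for 6 of 7 partners of the p75 receptor (median -0.074), 5 of 10 genes of precursor processing and sorting and 4 of 8 Bdnf regulators. Of 10 genes of precursor processing and sorting, 6 were above 0 in RNA and 8 in RPFs (medians 0.0039 and 0.049). Of the partners of the p75 receptor 5 of 7 tested were above 0 in RNA and 5 of 8 in RPFs (medians 0.092 and 0.021), and of the regulators of Bdnf transcription or transport 3 of 8 and 4 of 8 (medians -0.015 and -0.0024). These are counts of values that did not pass the test, and among all genes tested 52.1% were above 0 in RNA, 51.4% in RPFs and 49.5% in TE.

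Across the 10 RPF libraries, the genes whose log2 levels followed each member most closely were named by Pearson correlation, as a description over libraries that share replicate numbers. Bdnf was followed by Zfp114 (0.94), Ccnd1 (0.92) and Rab8a (0.91), of which Zfp114 had a low level of 1.35 CPM in basal RPFs. Over the 9 RNA libraries the same pairs had correlations of -0.56, 0.66 and 0.67. Ntrk2 was followed by Syt11 (0.99), Elovl6 (0.99) and Srpr (0.98), and Ntrk3 by Sp3 (0.99), Elovl6 (0.98) and B4galt5 (0.98), so both receptors had Elovl6 among their 3. The RNA correlations were 0.39, 0.33 and 0.52 for Ntrk2 and -0.62, 0.18 and 0.77 for Ntrk3. Sort1 was followed by Atg9a (0.99), Gria3 (0.98) and Cntnap2 (0.98), with 0.84, -0.63 and 0.80 in RNA. Sorcs1 was followed by Syt2 (0.95), Stmn4 (0.94) and Cr1l (0.94), with 0.80, 0.82 and 0.15 in RNA. The low-count genes had the closest matches Scamp2 for Ntf3 (0.95, and 0.59 in RNA) and Slc31a2 for Ngfr (0.93, and 0.01 in RNA). A correlation above 0.9 was reached by 2.30% of genes for Ntrk2, 2.54% for Ntrk3 and 2.84% for Sort1, and by 0.0315% for Bdnf.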

How the data were processed

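Slices were measured by RNA-seq and by ribosome profiling, with 19 libraries mapped to their groups by the labels. For each gene the authors deposited an expected count, estimated with RSEM and given as a whole number (mm10, with cutadapt, Bowtie2 and TopHat2 named in the submitters' processing notes), raw and with no normalization. RPFs of 26 to 34 nt were counted on RefSeq coding sequences without 30 nt at each end and RNA on whole transcripts. Columns of replicates that match none of these 19 samples (12) were not used. The study's own comparison of DHPG with basal slices had more replicates than the samples used here. No 2 libraries of a group held the same values (at least 15040 genes differed).

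DHPG was compared with basal in R 4.3.3 by edgeR 4.0.16 (quasi-likelihood F test, two-sided, TMM, filterByExpr, Benjamini-Hochberg over all genes tested) with replicate number as a block. The study treated the number as a batch. Deviations of same-numbered libraries from their group means correlated at 0.31 to 0.74 in RNA and 0.26 to 0.52 in RPFs. Between differently numbered libraries the correlations were -0.68 to 0.47 in RNA and -0.38 to 0.29 in RPFs, so the ranges overlapped. Nothing says that basal and DHPG slices of a number came from the same mice. Calls needed an adjusted p under 0.01 for RNA and 0.05 for RPFs, the thresholds of the study, and 0.05 for TE. TE was tested as the interaction of assay and treatment in 1 model over 19 libraries. Log2 CPM used a prior count of 2. Lengths came from GENCODE M21 for 95.5% of genes, and 0 of 14 annotated genes that overlap a member were in the tables. Every adjusted p is from edgeR unless another tool is named. Alternatives used limma 3.58.1, DESeq2 1.42.0 and sva 3.50.0, and the steps were tested on simulated data.

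The members, the pathway lists and the markers were chosen with earlier results of these data known. All 7 members were named, of the pathway the other ligands and receptors (2 of them are not reported here), any gene past the threshold and the gene with the smallest p in each comparison, and the 3 genes closest to each member by RPF correlation.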

Additional observations from a re-analysis of the deposited data

Results flagged for a closer look

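Of 35 groups of 4 or 5 libraries, 1 held a library far from the others, and chance would mark about 1.75. In basal RPFs replicate 3 had 15.3 CPM of Ntf3, the other 4 libraries had 11.5 to 12.4 CPM, and the gap was 0.77 of the whole range of the group. The DHPG library of replicate 3 was the highest of its group too, at 15.0 CPM.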

How the results depend on the processing

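No member passed the threshold under any alternative run: DESeq2's size factors, no filter, at least 10 counts in every library, no block, DESeq2 with the block, ComBat followed by DESeq2, other thresholds, limma for TE, and each replicate left out. DESeq2 gave no adjusted p for Bdnf, Ntf3, Ntrk3, Ngfr and Sorcs1 in RPFs with the block, and with ComBat none for Ntf3, Ngfr and Sorcs1 in RPFs or for these 3 and Bdnf in RNA, and Ngfr was not tested at 10 counts in every library, so these could not pass. Where an adjusted p was given, the lowest was 0.169 for RPFs of Bdnf, 0.170 for Sorcs1 and 0.133 for Ntrk2, and the highest was above 0.9997 for all 3. RPF fold changes kept their sign in all 76 values recomputed. Of 49 pathway genes 4 passed in RPFs with ComBat followed by DESeq2 (Cpe, Lingo1, Pcsk2 and Sorl1, named after their values were seen), and 0 otherwise. In that run 427 of all 13208 genes passed, and 8706 were given no adjusted p.

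Signs turned for some values. Without the replicate block, which treats same-numbered libraries as unpaired, log2 fold changes turned to -0.0056 for Ngfr RNA, -0.034 for Sort1 RNA, 0.013 for Ntrk3 TE and 0.032 for Sorcs1 TE, and the block changed no member's call. Ntf3 RNA was at -0.0020 without the filter and at -0.0019 with at least 10 counts in every library, Sort1 RNA at -0.0016 with ComBat, and Sorcs1 TE at 0.070 with limma. Leaving out each replicate in turn gave -0.0034 to 0.12 for Bdnf RNA, -0.036 to 0.092 for Ntf3 RNA, -0.033 to 0.0072 for Ntrk2 RNA, -0.23 to 0.50 for Ngfr RNA, and -0.021 to 0.046 for Sort1 RNA. For TE it gave -0.050 to 0.066 for Bdnf, -0.054 to 0.018 for Ntrk3, -0.29 to 0.51 for Ngfr, -0.020 to 0.036 for Sort1 and -0.053 to 0.053 for Sorcs1. The cause of these turns was not tested, and Ngfr was filtered out in 1 of the 5 refits. With the block, the DHPG RNA library of replicate 5 had no basal partner, so leaving it out could not test the RNA fold changes.

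Resting TE moved by more than its SD for all 7 genes when divided by lengths, longest or median, and with the longest it came to 4.05 for Bdnf, 1.77 for Ntf3, 1.92 for Ntrk2, 2.37 for Ntrk3, 1.31 for Ngfr, 1.42 for Sort1 and 0.9997 for Sorcs1, since the division adds the ratio of both lengths to every gene. Counts over all genes moved more than those of the members. In RPFs 29 genes passed, against 0 without the block, 96 without the filter, 427 with ComBat followed by DESeq2, and 10, 3, 71, 22 and 50 without replicate 1, 2, 3, 4 or 5. In RNA 1 passed, against 0 without the block, with DESeq2 or with at least 10 counts, 7 without the filter, 100 with ComBat, and 0 to 22 when 1 replicate was left out, the most without replicate 2. In TE 0 passed, against 4 without the filter, 1 without replicate 1 and 8 without replicate 2. At 6 to 18 RNA counts a library, depth limits what can be said of Ngfr.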

Other observations

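The replicate number accounted for most of the spread of the abundant receptors. Among libraries with both treatments, it held 95.7% of the variance of log2 RPF levels of Ntrk2, 90.5% for Ntrk3 and 95.4% for Sort1, beside a median of 72.4% over all genes, and treatment held 2.61%, 3.50% and 0.74%, beside a median of 3.78%. For Bdnf the replicate number held 93.9% in RNA and 74.4% in RPFs, beside medians of 75.4% and 72.4% over all genes. Treatment held 1.16% and 17.3% for Bdnf, beside medians of 3.73% and 3.78%. Sorcs1 was the gene of the 7 with the largest treatment share in RNA, 24.5% beside a median of 3.73%, and Ngfr had the largest in RPFs, 25.3%, with 46.9% left to neither.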
